A study of Homo sapiens with 6 samples.

Results

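The genes described are 10 transcriptional targets of p53 (CDKN1A, MDM2, BTG2, GADD45A, PLK3, SESN1, TP53I3, BBC3, FAS and RRM2B), out of 20098 protein-coding genes annotated on chromosomes 1 to 22 and X of hg19. They were chosen by name, and everything measured over each gene body and 5 kb on either side, called the window here, was taken as its signal. The cells were HCT116, a human colorectal carcinoma line with wild-type p53. They were left untreated (Ctrl) or treated with 10 µM camptothecin (CPT), which traps topoisomerase I on DNA, for 10 min (CPT10) or 20 min (CPT20), with 2 biological replicates per condition and 6 samples in all. The sample names write 10 and 20 as µM, whereas the treatment protocol gives them as minutes, and minutes are used here. DNA ends were mapped by END-seq, which ligates an adapter to free ends and reads outwards, so that reverse peaks lie to the left of a double-strand break and forward peaks to its right.

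p53 is a transcription factor that is stabilised after DNA damage and binds response elements made of a pair of adjacent decamers. Its targets include an inhibitor of p53 itself, inhibitors of the cell cycle, inducers of apoptosis, and enzymes of nucleotide supply and redox balance. Topoisomerase I relaxes the supercoils that form around transcribing polymerases, and CPT leaves it attached to a nick that can become a break. No transcript level was measured in the files analysed, so whether the genes were transcribed in these cells was not tested.

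The 8 peak lists analysed came from the 4 treated libraries, by strand. Ctrl libraries served the authors as input in peak calling and have no list here, so untreated cells give no background for these counts, and a level in a window is not by itself an effect of CPT. The lists held 286491 to 826744 peaks, with an average fragment height per base between 0.727 and 1.44, which serves as a relative measure of depth. CPT20 replicate 2 had the shortest lists and CPT10 replicate 1 the longest single list and the most peaks over both strands, so densities were compared within a library before they were compared between libraries. All 4 libraries share a cell line and a reference, and therefore mappability and copy number, so agreement between them at a locus includes what these fix.

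Sequences matching the p53 consensus were located first, because 2 of them lay inside sites of paired peaks described below. The search took the canonical p53 response element of 20 bases, a pair of decamers with no spacer, with the C and G core bases fixed and at most 2 mismatches elsewhere. The consensus reads the same on both strands, so a single scan covers both. A match was present in the windows of 7 of the 10 genes, against 33.3% of all windows and 17.3% of windows of at most 50 kb, and 9 of the 10 windows are of that size. The 7 matches amount to 19.9 per Mb of the genes' windows, against 7.47 per Mb of all windows. Presence of such elements is part of what makes these genes p53 targets, so this share is a description of the set. PLK3, SESN1 and TP53I3 had no match, which says only that these letters do not occur there. The 6 elements printed here show the positions against which breaks were set. They are given 5′ to 3′ from hg19 with the fixed C and G core bases in capitals.
CDKN1A, chr6:36644226-36644245, plus strand: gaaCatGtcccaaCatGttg
MDM2, chr12:69202703-69202722, plus strand: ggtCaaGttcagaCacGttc
BTG2, chr1:203272770-203272789, plus strand: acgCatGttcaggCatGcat
GADD45A, chr1:68152458-68152477, plus strand: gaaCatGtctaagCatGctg
BBC3, chr19:47721428-47721447, minus strand: aagCatGccccaaCatGccg
FAS, chr10:90751066-90751085, plus strand: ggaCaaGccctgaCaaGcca

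The MDM2 element lies in intron 1 and the GADD45A element in intron 3 of the MANE transcript, the reference transcript of the annotation. The CDKN1A element spans the annotated start of the gene and lies upstream of its MANE transcript, which starts at position 36646491. The BTG2 element is upstream, at −1839 bp from the gene's 5′ end, the BBC3 element is downstream of the gene, and the FAS element is 662 bp into the gene body.

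The first question was how many peaks each gene held relative to its surroundings. For each library the density of peaks in the window was divided by that in the 500 kb on each side, and the mean log2 ratio of the 4 libraries was tested against 0 with limma, with Benjamini-Hochberg adjustment over all 19299 genes that had at least 8 peaks in their window over the libraries. All 10 genes passed that filter. The ratio was higher than 1 by this test for 7 of the 10, namely GADD45A, PLK3, BTG2, BBC3, CDKN1A, MDM2 and TP53I3, and for 21.1% of all genes. Among windows of at most 50 kb the share was 23.4%. The median log2 ratio was 0.82 over the 10 genes and 0.11 over all genes tested. SESN1, RRM2B and FAS were not called. CPT20 replicate 2, the library with the fewest peaks, gave the largest ratio in 6 of the 7 called genes and in SESN1, and without it the same count of 7 was called. The plots of density and of its ratio to the surroundings give each library's value.

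**Figure D1:**
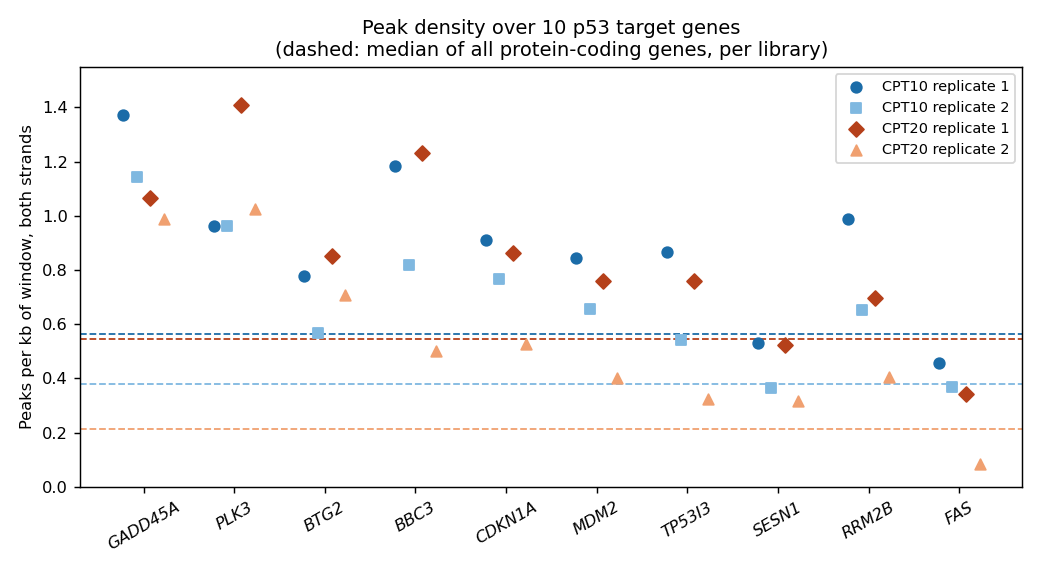
Peaks per kb of window, both strands summed, for each of the 10 genes (x axis, ordered by the ratio to the neighbourhood) in the 4 treated libraries. Dashed lines are the median over all protein-coding genes in the library of that colour. All genes but SESN1 and FAS lie above the lines in every library. SESN1 lies above its library's line only in CPT20 replicate 2, and FAS lies below its library's line in all 4.

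Among the inhibitors of p53, MDM2 is the ubiquitin ligase that marks p53 for degradation and is itself induced by it. Its window of 47.4 kb held 40 and 31 peaks at 10 min and 36 and 19 at 20 min, in replicates 1 and 2. Divided by the neighbourhood density, these were 1.71 and 1.64 at 10 min and 1.47 and 1.81 at 20 min, so all 4 libraries lay above 1 and the times overlapped. The mean log2 ratio was 0.75 ± 0.13 (SE, n = 4, limma adjusted p = 0.00047). The gene CPM overlaps the last 8348 bp of the window on the opposite strand, and peaks there cannot be assigned to either gene.

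GADD45A, PLK3, BTG2 and CDKN1A act on the cell cycle. GADD45A encodes a small protein that binds PCNA and the p21 protein, and its window had the largest ratio of the 10. It held 18 and 15 peaks at 10 min and 14 and 13 at 20 min in a window of 13.1 kb. The ratios were 2.87 and 3.12 at 10 min and 2.36 and 5.62 at 20 min, and the window density lay between percentiles 93.2 and 99.5 of all genes. The log2 ratio was 1.77 ± 0.21 (SE, n = 4, limma adjusted p = 1.2e-05), or 3.41-fold. PLK3, a polo-like kinase that responds to stress, held 15 and 15 peaks at 10 min and 22 and 16 at 20 min. Its ratios were 1.63, 2.58, 2.34 and 4.34 in the same order, with a log2 ratio of 1.40 ± 0.20 (SE, n = 4, limma adjusted p = 5.2e-05). The window of PLK3 also holds DYNLT4 and the start of BTBD19.

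BTG2, an antiproliferative protein that recruits the mRNA deadenylation machinery, held 11 and 8 peaks at 10 min and 12 and 10 at 20 min. Its ratios of 1.48, 1.64 and 1.47 were close to each other, whereas CPT20 replicate 2 gave 3.83. The log2 ratio was 1.01 ± 0.25 (SE, n = 4, limma adjusted p = 0.0056), and without CPT20 replicate 2 it was 0.66 and still passed (limma adjusted p = 0.038). It did not pass without either CPT10 library (limma adjusted p = 0.070 and 0.090). CDKN1A, which encodes the kinase inhibitor p21, held 19 and 16 peaks at 10 min and 18 and 11 at 20 min. Its ratios were 1.53, 2.04, 1.40 and 2.46, and the log2 ratio of 0.90 ± 0.19 (SE, n = 4, limma adjusted p = 0.0021) did not pass without CPT10 replicate 2 (limma adjusted p = 0.074). In both genes every library lay above 1.

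The genes linked to apoptosis differed among themselves. BBC3 encodes PUMA, an activator of the mitochondrial death pathway. Its window held 26, 18, 27 and 11 peaks in the library order used above, and the ratios were 1.49, 2.35, 1.64 and 2.29. The log2 ratio was 0.97 ± 0.17 (SE, n = 4, limma adjusted p = 0.00048). TP53I3, a quinone oxidoreductase tied to oxidative stress, held 16, 10, 14 and 6 peaks with ratios of 1.56, 1.37, 1.52 and 1.59. The log2 ratio of TP53I3 was 0.66 ± 0.21 (SE, n = 4, limma adjusted p = 0.025), the weakest of the calls. It failed without either CPT10 replicate (limma adjusted p = 0.20 and 0.14), with a −log10 q threshold of 3 (0.072), with 200 kb on each side as the neighbourhood (0.090) and over the gene body alone (0.15). FAM228B overlaps 14336 bp of the TP53I3 window of 18.4 kb. FAS, the death receptor, held 16, 13, 12 and 3 peaks. Its ratios of 1.06, 0.95, 0.73 and 0.46 spanned 1, and the log2 ratio was −0.30 ± 0.21 (SE, n = 4, limma adjusted p = 0.34). The neighbourhood of FAS had 0.858 to 1.09 times the genome density.

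The remaining genes supply metabolism and repair. SESN1, a sestrin that restrains growth signalling under stress, has the longest window, 120.5 kb, and held 64, 44, 63 and 38 peaks. Its ratios were 0.98 and 0.97 at 10 min and 1.01 and 1.47 at 20 min, and the log2 ratio was 0.14 ± 0.12 (SE, n = 4, limma adjusted p = 0.42). RRM2B encodes the p53-inducible subunit of ribonucleotide reductase. It held 44, 29, 31 and 18 peaks, and its window density reached percentiles 69.9 to 92.0 of all genes. Its neighbourhood, however, held 1.58 to 1.84 times the genome density, and the ratios to it were 1.25, 1.05, 0.94 and 1.09 (log2 ratio 0.13 ± 0.13, SE, n = 4, limma adjusted p = 0.51). RRM2B thus stood high by the density of its window and not by the ratio to its surroundings.

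**Figure D2:**
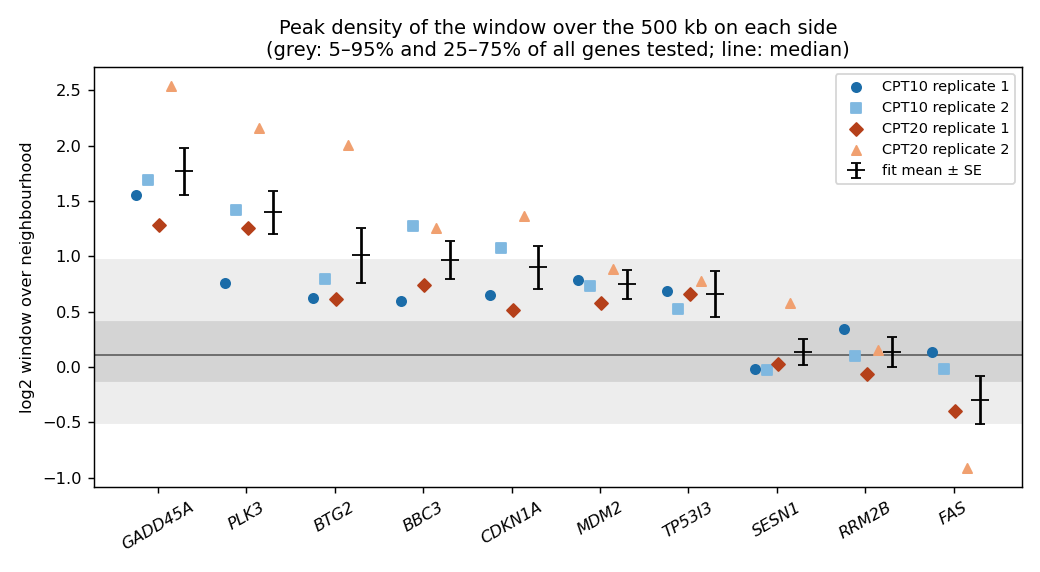
Log2 ratio of the peak density in the window to that in the 500 kb on each side, per library, with the mean of the fit and its SE. Grey bands hold 5 to 95% and 25 to 75% of all genes tested and the line is their median. The 7 called genes lie above 0 in all 4 libraries, and CPT20 replicate 2, with the fewest peaks, gives the largest ratio in 6 of them, the exception being BBC3, and in SESN1.

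Base composition was set beside these ratios. The median GC content of the 10 windows was 45.3%, against 44.7% over all windows. Window GC ranged from 38.1% in SESN1 to 55.1% in BBC3, and GADD45A, with the largest ratio, had 43.1%. The window was richer in GC than its neighbourhood in all 7 called genes, by 8.38 percentage points in PLK3, 4.94 in TP53I3, 4.34 in BBC3, 3.36 in CDKN1A, 2.01 in BTG2, 1.90 in GADD45A and 0.07 in MDM2. Among the genes not called the difference was 0.70 in FAS, −2.15 in RRM2B and −3.61 in SESN1. The called MDM2 thus lay below FAS, which was not called, and the difference did not separate the calls fully. Among all genes these differences ranked from percentile 94.0 in PLK3 to 9.17 in SESN1, with GADD45A at 60.4, FAS at 48.3 and MDM2 at 41.2. The part of GC content in the ratios was not tested.

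Other genes of the pathway were described in the same way, from 24 further p53 targets and 10 regulators of p53, with PPM1D in both lists. Of the 24 targets, 11 were called higher and 0 lower, against 21.1% of all genes called higher, 20 had a log2 ratio above 0, and the median was 0.40. The highest of both lists were PMAIP1, which encodes the death activator NOXA (1.77 ± 0.19), KITLG, the ligand of the KIT receptor (1.32 ± 0.10), and the polo-like kinase PLK2 (1.30 ± 0.21; SE, n = 4; limma adjusted p between 9.9e-08 and 1.9e-04). The lowest of both lists were the target EDA2R at −0.57, the regulator HIPK2, a kinase of p53, at −0.21 and the target SUSD6 at −0.11, none of which passed. Of the 10 regulators, 2 were called higher, the checkpoint kinase gene CHEK1 and MDM4, which is near the 21.1% of all genes, and the median log2 ratio was 0.17.

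The second question was whether peaks in the windows changed between 10 and 20 min. Density in each window was centred on the median of all genes in its library and compared with limma. None of the 19299 genes passed (0% called, 550 at an unadjusted p under 0.05), and none of the 10 had an unadjusted p under 0.05. The largest differences among them, CPT20 minus CPT10, were 0.74 ± 0.40 for PLK3, 0.64 ± 0.50 for BTG2 and −0.75 ± 0.46 for FAS on the log2 scale (SE, n = 2 per time, limma adjusted p = 1.0 for each). For MDM2 it was 0.00 ± 0.29.

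The third question concerned position along the gene. Peaks were counted in 1 kb bins around the annotated 5′ end and divided by the neighbourhood density. That end lies upstream of the MANE start in CDKN1A (36644237 against 36646491), BBC3 (47736023 against 47734456) and TP53I3 (24308731 against 24307704), and by a few bases in BTG2. For these genes the first downstream bins thus include sequence before the MANE transcript. In the 5 bins upstream of the 5′ end the 10 genes averaged between 1.05 ± 0.52 and 1.36 ± 0.42 times the neighbourhood (SD, n = 4), and all genes averaged 1.05 in the farthest bin and 1.15 between 2 and 1 kb upstream. In the last 1 kb upstream the 10 genes averaged 1.31 ± 0.70. In the first 1 kb downstream they averaged 2.28 ± 0.98 and all genes 1.32. The mean of the 10 genes stayed between 2.13 and 2.64 up to 6 kb downstream, with SDs of up to 1.39. That of all genes was 1.23 to 1.47 there. CPT20 replicate 2 gave the largest value in each of these bins, 3.14 to 4.48. CPT10 replicate 1 gave 1.21 and 0.86 in the first 2 kb, against 1.27 and 1.28 for all genes, and 1.73 to 2.42 from there to 6 kb. The mean of the 10 genes was 1.27 ± 0.62 between 8 and 9 kb. Several of these genes end within that distance, so the last bins include sequence past them.

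**Figure D3:**
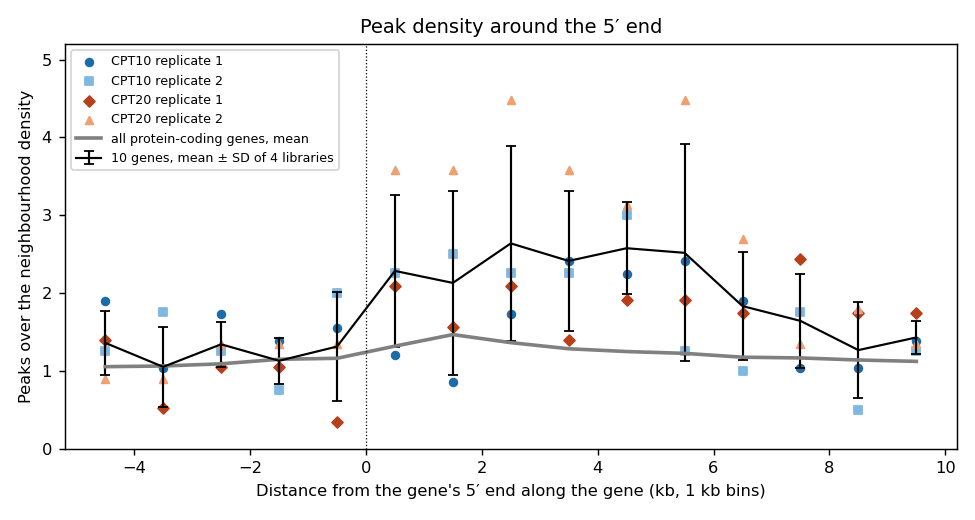
Peaks in 1 kb bins from 5 kb upstream to 10 kb downstream of the annotated 5′ end, as a multiple of the neighbourhood density. Points are the sums over the 10 genes in each library, the black line is their mean with the SD over 4 libraries, and the grey line is the mean over all protein-coding genes. The bins from 0 to 6 kb average 2.13 to 2.64 for the 10 genes, and CPT20 replicate 2 is the highest point in each of them.

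Summed over the 10 genes, the first 5 kb downstream held 43 and 42 peaks at 10 min and 49 and 37 at 20 min, and the 5 kb upstream held 44 and 28, then 25 and 13. Per gene, GADD45A had 3, 6, 7 and 7 peaks in its body, which is shorter than 5 kb, and 6, 3, 1 and 2 upstream, so CPT10 replicate 1 went the other way. BTG2 had 3, 5, 6 and 5 peaks in its body and 4, 1, 2 and 0 upstream. SESN1 had fewer peaks downstream than upstream in 3 of 4 libraries (5, 3, 1 and 3 against 7, 3, 3 and 5). Upstream counts include other genes on the opposite strand. The protein-coding CEP57L1 fills 4737 bp upstream of SESN1, the noncoding BTG2-DT fills 4825 bp upstream of BTG2, and ACTA2 overlaps the upstream side of FAS. As planned, the limma test of downstream against upstream density called 0 of 19299 genes (0%, with 2773 at an unadjusted p under 0.05). In simulated counts the same fit recovered 0% of genes changed 2-fold, 4-fold or 16-fold. It therefore gives no answer for these genes, and the counts stand as a description.

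After that result was seen, a second fit was tried, which filtered on and modelled the variance from peaks near the 5′ end and moderated it robustly. In simulations it recovered 56.5% of genes changed 4-fold and 0% of those changed 2-fold. It called 674 of 18160 genes higher downstream (3.71%), among them GADD45A (log2 1.65 ± 0.46, SE, n = 4, limma adjusted p = 0.029) and BTG2 (1.87 ± 0.54, SE, n = 4, limma adjusted p = 0.038). Leaving out any of the 4 libraries left 0 genes called, and these 2 calls thus depend on a fit chosen after seeing the data and on every library.

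The fourth question was on which strand the peaks lay. Peaks on the strand of transcription were compared with those on the other, after centring each library on its median gene. Of the 10 genes only SESN1 was called (log2 0.82 ± 0.20, SE, n = 4, limma adjusted p = 0.013), against 14.5% of all genes. SESN1 is transcribed from the minus strand and held 48, 28, 38 and 24 reverse peaks against 16, 16, 25 and 14 forward peaks in the same library order. Reverse peaks outnumbered forward peaks in all 4 libraries. The call was lost without CPT10 replicate 1 or without CPT10 replicate 2. In these fits the calls of all other genes were lost too, so the loss is not particular to SESN1. A count of 1 in 10 is near the share of all genes.

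The fifth question was where paired peaks marked a break on both of its sides. A site was a reverse peak with its closest forward peak, overlapping it or less than 150 bp downstream. Overlapping pairs were kept whatever the order of their summits. Some pairs in replicated sites of GADD45A, PLK3 and BBC3 had the forward summit on the left, opposite to the layout of a break. A replicated site overlapped a site of the other replicate at the same time. The 10 windows held 36 and 19 sites at 10 min and 39 and 16 at 20 min, a mean of 27.5 ± 12.0 and 27.5 ± 16.3 (SD, n = 2 each). The replicates differed within each time, whereas the means were equal. The exact permutation test of the difference in means (two-sided, p = 1) therefore adds nothing, and this design allows no p below 0.33. The log2 ratio of 20 over 10 min was 0 for the 10 genes and −0.38 for all genes, and with every list limited to the length of the shortest it was 0.62 and 0.28, a move of over 1.5-fold in both. Replicated sites at 10 min lay in MDM2, GADD45A and PLK3, 3 of 10 genes against 11.3% of all. At 20 min they lay in BTG2, GADD45A, PLK3 and BBC3, 4 of 10 against 10.8%. GADD45A and PLK3 had them at both times, against 5.47% of all genes. Both of these rest in part on pairs with the forward summit on the left. In PLK3 at 10 min this was the only pair of CPT10 replicate 2 (−48 bp). In GADD45A at 20 min these were the only pairs of CPT20 replicate 1 (−184 and −260 bp). The share of all genes was counted with the same rule. At either time 5 of 10 genes had a site, against 16.7% of all genes and 14.5% of those with windows of at most 50 kb. CDKN1A, SESN1, TP53I3, FAS and RRM2B had 0 at either time.

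GADD45A had 6, 5, 3 and 4 sites in the 4 libraries. At 10 min its replicated sites were centred 2956 bp from the 5′ end, over exon 4, and 4402 bp from it, past the gene. In CPT10 replicate 2 the site past the gene was 34 bp wide, from a reverse peak of 6 and a forward peak of 8 fragments. There the forward summit lay left of the reverse summit (−49 bp). At 20 min the replicated site was centred at 1335 bp (chr1:68151582-68152856), in exon 3. The tallest peak in it was a forward peak of 38 fragments in CPT20 replicate 1. In that library the forward summits of the site's pairs lay left of the reverse summits (−184 and −260 bp). The sites of the 2 times did not overlap, but single libraries of the other time had a site over each, 2 libraries for the first and 1 for each of the others.

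PLK3 had 3, 2, 7 and 5 sites. Its replicated sites of the 2 times overlapped downstream of the gene, at 6595 bp at 10 min and 6245 bp at 20 min, where DYNLT4 and an unnamed long noncoding gene are annotated. In CPT10 replicate 2 the site there was 34 bp wide, from a reverse peak of 5 and a forward peak of 4 fragments. The forward peak had a −log10 q of 1.52, and 4 was the lowest summit of its list, so the replicated site of 10 min rests on weak peaks in that library. At 20 min further replicated sites were centred at 374 bp in intron 1 and at 4007 bp in exon 12, with no site there in either 10 min library. BBC3 had 2, 1, 7 and 2 sites, and its replicated sites at 20 min lay in intron 1 at 3882 bp and intron 3 at 6367 bp, each with a site in 1 library of 10 min. In CPT20 replicate 2 the intron 1 site was 63 bp wide, and its forward summit lay left of the reverse summit (−198 bp). BTG2 had 2 sites in every library, and the replicated one, at 20 min, was centred 689 bp from the 5′ end in intron 1.

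MDM2 had 4, 4, 6 and 0 sites. Its replicated sites at 10 min lay in intron 1, centred 986 bp from the 5′ end (chr12:69202443-69203443), and in intron 4 at 11566 bp. In the first, CPT10 replicate 1 had a reverse peak of 20 and a forward peak of 21 fragments, and CPT10 replicate 2 had 11 and 9. Neither library of 20 min had a site over either of them.

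**Figure D4:**
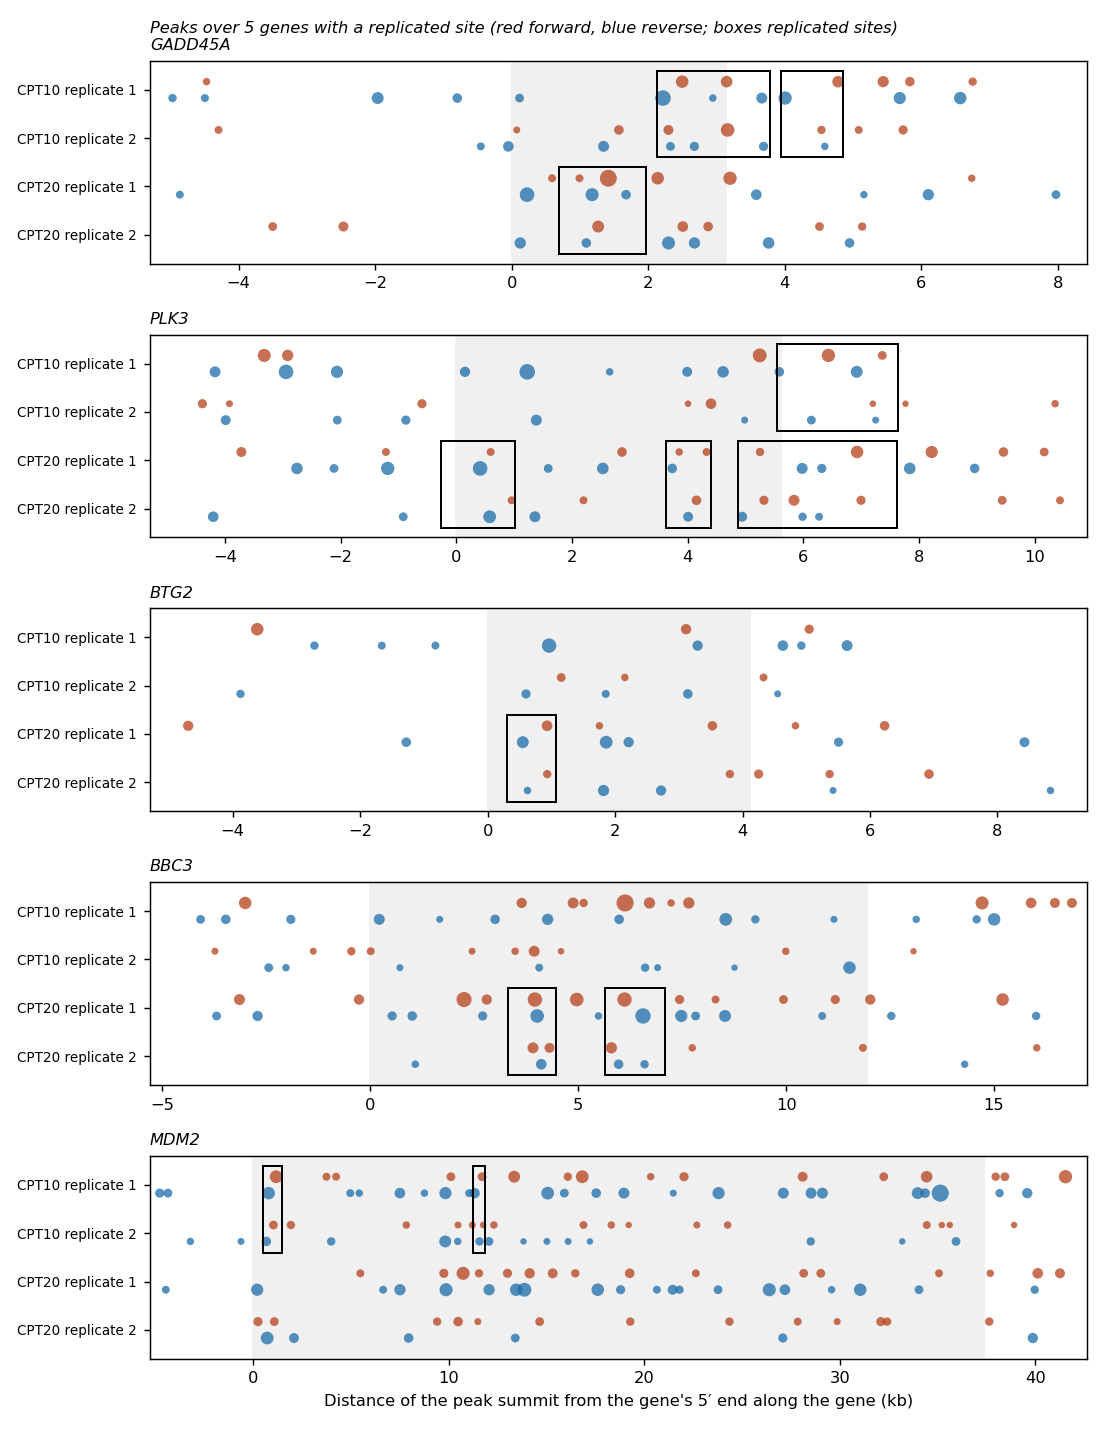
Peak summits over the 5 genes with a replicated site, by distance from the annotated 5′ end in kb. Red points are forward and blue points reverse peaks, their area rises with summit height in fragments, grey marks the gene body, and boxes mark replicated sites over the libraries of their time. GADD45A and PLK3 have boxes at both times, MDM2 at 10 min, and BTG2 and BBC3 at 20 min.

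The response elements were then set against these sites. The element in intron 1 of MDM2 lay inside the replicated site of 10 min, and a reverse peak lay over it in all 4 libraries, with no forward peak over it in any. The element in intron 3 of GADD45A lay inside the replicated site of 20 min, and peaks lay over it in 4 of the 8 lists, forward in CPT10 replicate 2, both strands in CPT20 replicate 1 and forward in CPT20 replicate 2. The surrounding 100 bases of each are shown with the element in capitals, 5′ to 3′ on the plus strand of hg19, since these are the places where an element and a replicated site coincide.
MDM2, chr12:69202663-69202762: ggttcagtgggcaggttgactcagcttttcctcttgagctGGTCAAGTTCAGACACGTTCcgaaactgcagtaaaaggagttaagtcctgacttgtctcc
GADD45A, chr1:68152418-68152517: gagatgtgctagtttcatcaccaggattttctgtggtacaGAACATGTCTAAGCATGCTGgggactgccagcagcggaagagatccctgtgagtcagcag
The BTG2 element was 2130 bp from the nearest replicated site and had no peak over it. The BBC3 element was 7496 bp away with peaks over it in 2 of 8 lists. The elements of CDKN1A and FAS were 72656 and 1005471 bp from the nearest replicated site, and no list had a peak over either. Over the 4 libraries, peaks of a strand covered on average 16.5 to 21.2% of the GADD45A window and 5.21 to 14.4% of the MDM2 window. How often matches elsewhere lie inside replicated sites or under peaks was not counted, so these overlaps have no background share. A match to the consensus is not evidence that p53 was bound there, and binding was not measured in the files analysed.

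The lists had median summits of 6 to 10 fragments. The tallest peak of each library in the GADD45A window reached 32, 24, 38 and 22 fragments, and in the CDKN1A window 27, 12, 36 and 17. In FAS they were 18, 9, 15 and 10, and the tallest peak over all 10 genes was 1 of 42 fragments in RRM2B in CPT10 replicate 1. With peaks of a −log10 q-value of at least 10 only, 0 of the 10 genes and 1.75% of all genes had a replicated site at either time.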

How the data were processed

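END-seq libraries of HCT116 cells were processed by the authors, per the study's methods, with Trim Galore 0.6.5, Bowtie2 2.5.0 on hg19, SAMtools 1.16.1 (mapping quality of at least 30, duplicates kept) and MACS2 2.2.7.1, per library and strand, with the control as input, no local background and a q-value threshold of 0.05. A murine spike-in was scaled after peak calling and does not enter the lists. The authors deposited, per peak, a score, a fold enrichment as a linear ratio, −log10 p-values and q-values, and a summit offset. PCR duplicates are not independent molecules, and read totals were not used here.

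Peak midpoints were counted with Python 3.11.15 over hg19 windows from GENCODE 44. Log2 densities with a pseudocount of 0.5 peaks were tested with limma 3.58.1 (R 4.3.3; time as group, variance trend on peak count, Benjamini-Hochberg over all genes). Libraries were grouped by treatment time, and p-values measure the spread between these libraries. Scripts were tested on simulated data. The planned 5′-end test had no power there, and its planned form was kept as the main result beside the later alternative.

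The members and gene lists were chosen with earlier results of these data known. Named genes were all 10 members and, of the other lists, the 3 highest and 3 lowest ratios over both lists. CHEK1 and MDM4 fall outside this rule and were named after their values were seen, as the only regulators called. Those with replicated sites at both times are given under other observations. Alternatives are given in the closing section. The value of 1 gene of these lists is not reported here.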

Additional observations from a re-analysis of the deposited data

Results flagged for a closer look

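The window-to-neighbourhood ratio of SESN1 lay on opposite sides of 1 at the 2 times. Its log2 values were −0.01 and −0.03 at 10 min and 0.02 and 0.57 at 20 min, so the mean at 20 min minus 10 min was 0.32. The difference in this ratio was not tested. Without CPT20 replicate 2 the remaining value of 20 min was 0.02.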

How the results depend on the processing

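For the window-to-neighbourhood ratio, 9 of 128 values of single members under the alternatives fell below the threshold with the direction kept, and none reversed. Leaving out one library gave 4 to 7 called members and 1821 to 5015 called genes, the lowest counts without a CPT10 library. Between times, leaving out one library gave 0 to 288 called genes, most without CPT20 replicate 1, and a −log10 q threshold of 10 gave 7; no member was called. For the 5′ end, the number called was 284 with no filter, 114 at that q threshold, and 674 with 2 members by the robust fit. On the strand of transcription, leaving out one library gave 0 to 3326 genes and 0 to 1 members, and that q threshold gave 0 genes and 0 members. Members with replicated sites at 10 min, 20 min and both were 0, 0 and 0 at that threshold; at both times the count was 1 for the gene body alone, at a −log10 q of at least 3, and with lists limited to the shortest. With lists limited to the shortest the log2 ratio of sites at 20 over 10 min was 0.62, and without one library the log2 ratio of sites at 20 over 10 min ranged from −0.78 to 0.53. The causes were not tested.

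With the replicate number as a replicate block, 4802 genes and 7 members had a raised ratio, and it changed no call of a member in any of the tests. Deviations of same-numbered libraries correlated at 0.20 for density and 0.08 for the ratio over 19299 genes, and a table of the methods places untreated cells and both times in each of 2 experiments, but nothing ties the labels' replicate numbers to them.

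Low counts limit the comparison at the 5′ end, where the 10 genes held 0 to 9 peaks per side and library.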

Other observations

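Of the 24 further p53 targets, PMAIP1, TRIAP1, GDF15, KITLG, FBXW7, TNFRSF10B and TP53INP1 had a replicated site at both times, as did ATM among the 10 regulators. Across all genes the share was 5.47%. A longer window can hold more sites, and window length was not matched in these lists. KITLG, a growth factor gene, had 25, 15, 23 and 13 sites in the 4 libraries (CPT10, then CPT20, replicate 1 first), with 4 replicated sites at 10 min and 5 at 20 min. GDF15, a secreted stress protein gene, had 3, 4, 7 and 4 sites, with 2 and 3 replicated.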
